A study of Mus musculus with 2 samples.

Results

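The cornified envelope precursors described here are 10 mouse genes whose products build or cross-link the protein shell of the outermost keratinocytes: Lor, Flg, Ivl, Lce1a1, Sprr1a, Sprr1b, Sprr3, Rptn, Tgm1 and Tgm3. They were taken as all probe sets that the platform annotation assigns to exactly 1 of these genes, which gave 17 probe sets of the 45101 on the array, and 10 genes of 18193 with a probe set of their own. Expression was measured in fetal palate at E18.5 (embryonic day) on Affymetrix arrays. There were 2 samples, both on a BALB/c background: 1 array of palate labelled as null for both Myf5 and Myod1 (MyoD), the transcription factors that commit cells to skeletal muscle, and 1 array of wild-type palate. The series asks what skeletal muscle contributes to palate development. The labels do not give the number of fetuses in each sample or the deleted stretch of either gene. With 1 array per genotype no test was possible, so each difference below is between these arrays only and has no p-value.

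The cornified envelope forms as keratinocytes of stratified epithelium die and flatten. Small precursor proteins are joined to each other by transglutaminases beneath the cell membrane, first on a scaffold that holds involucrin (Ivl), later with loricrin (Lor), small proline-rich proteins (Sprr) and late cornified envelope proteins (Lce), and lipids are attached to the outside. The oral side of the hard palate carries a cornifying epithelium. Most precursor genes lie side by side in one stretch of the genome, the epidermal differentiation complex.

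The array labelled double null did not show a loss of Myod1 or Myf5 signal. The brighter Myod1 probe set had a signal of 1664 on the array labelled double null and 1937 on the wild-type array. The Myf5 probe set had 532 on the array labelled double null and 517 on the wild-type array. Both Myf5 values lie under 658, the level used below for a measured gene, so little can be read from them. The labels do not say whether these probe sets lie inside the removed parts. For that reason the mutant sample is named below by its label only. Sex-linked transcripts differed too. The brighter probe set of the Y-linked gene Eif2s3y had 2795 on the array labelled double null and 10.8 on the wild-type array. The 3 Xist probe sets had 8471, 617 and 16954 on the array labelled double null. On the wild-type array they had 14923, 1671 and 33799. Xist was thus lower on the array labelled double null but still readable there, together with Eif2s3y. The sex of the fetuses in each sample was not tested. Sex, dissection and genotype cannot be told apart with these samples.

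Promoters are shown first for the 5 precursor genes that were bright enough to be measured, since the results below turn on them. Each line gives the 250 bases before the annotated start in RefSeq (GRCm38.p6), read 5′ to 3′ along the gene. Capitals mark matches to TGANTCA and to TATAAA, the core of the TATA box, each searched on both strands. TGANTCA is a loose form of the AP-1 site, which is TGAGTCA or TGACTCA. AP-1 is made of Fos and Jun factors, known regulators of keratinocyte genes.
Lor, chr3:92083143-92083392, minus strand: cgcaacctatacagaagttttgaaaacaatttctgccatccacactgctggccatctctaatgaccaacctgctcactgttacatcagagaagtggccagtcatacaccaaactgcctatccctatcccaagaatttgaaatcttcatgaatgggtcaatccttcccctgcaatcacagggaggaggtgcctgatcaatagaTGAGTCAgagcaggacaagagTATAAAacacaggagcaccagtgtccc
Lce1a1, chr3:92648308-92648557, minus strand: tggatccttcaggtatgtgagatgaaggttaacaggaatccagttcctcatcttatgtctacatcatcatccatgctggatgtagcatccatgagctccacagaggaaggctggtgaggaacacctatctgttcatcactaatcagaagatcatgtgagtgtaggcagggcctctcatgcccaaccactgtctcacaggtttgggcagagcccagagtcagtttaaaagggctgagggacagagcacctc
Sprr1a, chr3:92485882-92486131, minus strand: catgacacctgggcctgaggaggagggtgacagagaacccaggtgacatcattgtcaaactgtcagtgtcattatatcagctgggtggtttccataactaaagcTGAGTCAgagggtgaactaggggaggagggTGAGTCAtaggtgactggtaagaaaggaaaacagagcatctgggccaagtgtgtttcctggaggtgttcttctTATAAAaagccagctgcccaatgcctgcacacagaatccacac
Sprr3, chr3:92458721-92458970, minus strand: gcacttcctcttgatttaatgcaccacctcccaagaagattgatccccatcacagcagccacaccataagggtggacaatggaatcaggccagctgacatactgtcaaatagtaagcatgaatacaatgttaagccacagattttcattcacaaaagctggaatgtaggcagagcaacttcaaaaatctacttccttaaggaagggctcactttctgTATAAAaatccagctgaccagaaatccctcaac
Rptn, chr3:93393449-93393698, plus strand: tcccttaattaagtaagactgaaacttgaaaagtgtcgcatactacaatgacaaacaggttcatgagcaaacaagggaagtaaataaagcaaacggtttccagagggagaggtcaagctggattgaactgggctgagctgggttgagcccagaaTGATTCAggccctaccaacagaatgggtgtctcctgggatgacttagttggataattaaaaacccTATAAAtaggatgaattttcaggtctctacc

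Promoter sequence played no part in choosing the genes, and most but not all of them held the same short motifs. TATAAA was found in 8 of the 10 genes, Lor, Flg, Ivl, Sprr1a, Sprr1b, Sprr3, Rptn and Tgm3, against 12.4% of the 32851 promoter windows of the same length. The match in Lor began 27 bases before the start and that in Sprr3 began 33 bases before it. TGANTCA was found in 6 of the 10 genes, Lor, Flg, Ivl, Sprr1a, Sprr1b and Rptn, against 6.75% of all windows. It began 48 bases before the start in Lor, 96 in Rptn, 116 in Ivl, and 146 and 116 in Sprr1a, which held 2 matches. The AP-1 site itself was matched in Lor and Sprr1a (TGAGTCA) and in Ivl (TGACTCA). The matches in Flg and Sprr1b were TGAATCA and that in Rptn was TGATTCA, which differ from it in the middle base. The shares and family counts for TGANTCA were not split by that base. CACCC, the short core bound by Krüppel-like factors, was found in 8 of the 10 genes, but 52.0% of all windows hold it. Lce1a1 held none of the 3 motifs, and across the whole Lce family of the complex TGANTCA was found in 0 of 20 genes and TATAAA in 4 of 20. In the Sprr family TGANTCA was found in 9 of 14 genes and TATAAA in 10 of 14. Neither motif overlapped the other in the windows shown, and the genes of a family share ancestry, so they are not independent draws.

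Precursor signals were lower on the array labelled double null in nearly every probe set. Of the 17 probe sets 15 had a lower signal there and 2 a higher one, against 46.1% lower among all probe sets of 1 gene. A floor was set at the 40th percentile of scaled signal (287), under which signals were not read. The 2 higher probe sets, 1 each of Lor and Ivl, were under it on both arrays, and so were 3 of the 15 lower ones, of Ivl, Rptn and Sprr1b. The other 12 were all lower. Before any floor 6 of the 17 were at least 2-fold lower, against 11.4% of all probe sets of 1 gene, and 5 of these 6 were above the floor on at least 1 array. Signals here are MAS5 signals after a common scaling of both arrays, and a log2 ratio divides the signal labelled double null by that of wild type, both after the floor.

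Genes were called measured if at least 1 array gave a signal at the 60th percentile (658) or higher, which held for 5 of the 10 through their brightest probe set. Lor, Sprr1a and Rptn reached that level on both arrays. Lce1a1 and Sprr3 reached it on the wild-type array only, so they had to differ to be counted there. Of the 5 measured genes, 3 were below the wild-type array by 2-fold or more, Lor, Lce1a1 and Sprr3, and 0 exceeded it by that much. Among all 11239 measured genes 4.22% were lower and 3.55% higher by this rule. The lower ones made up 54.3% of those past 2-fold, and 16.7% to 74.5% under other scalings. All 5 had a log2 ratio below 0, against 43.5% of measured genes, and of the 3 that were measured on both arrays only Lor passed 2-fold. The median log2 ratio of the 5 was -1.47, beside 0.07 over all measured genes. That median is the value of Sprr3, which passed the filter on the wild-type array only, so it rests on that filter. With the floor kept and no filter the median of the 10 was -0.58, beside 0 over all genes. With the filter on the mean of both arrays it was -1.40 over 4 genes. Without a floor or a filter, all 10 genes lay below 0 by their brightest probe set, with a median of -0.88, beside 0.06 over all genes. The share of all genes below 0 in that setting was not computed, and among all probe sets of 1 gene it was 46.1%. The 10 include Ivl and Sprr1b, whose signals were under the floor on both arrays and are not read.

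**Figure D1:**
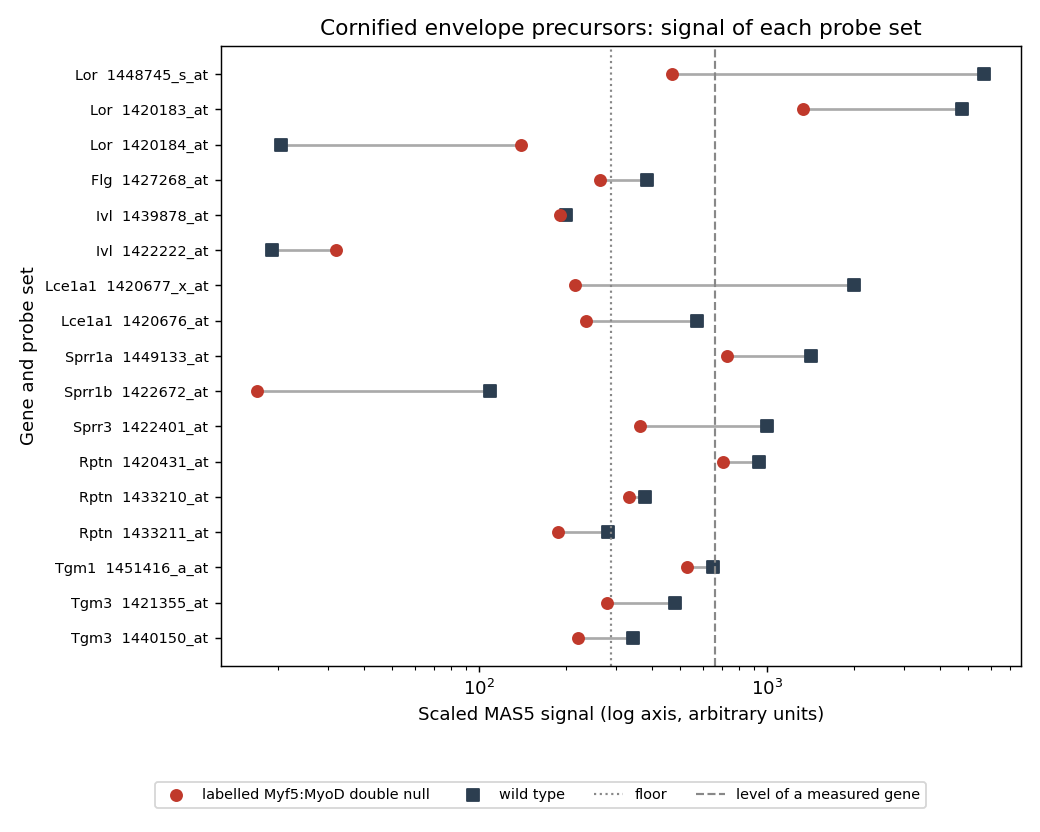
Scaled MAS5 signal (log axis) of the 17 probe sets of the 10 genes on the array labelled double null (circles) and the wild-type array (squares), 1 array each, with the floor (dotted) and the level of a measured gene (dashed). The circle lies left of the square in 15 probe sets, and the widest gaps that reach above the floor are those of Lor and Lce1a1.

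Loricrin, the glycine-rich protein that makes up much of the mature envelope, was lower by both of its readable probe sets. Its representative probe set had a signal of 1333 on the array labelled double null and 4743 on the wild-type array, which is 3.56-fold lower (log2 ratio -1.83). A second probe set, with a suffix that marks shared probes, had 468 on the array labelled double null and 5680 on the wild-type array, which is 12.1-fold lower (log2 ratio -3.60). These ratios had the same direction but lay further apart than 0.51, the SD of log2 ratios among probe sets that share a gene. The remaining one read 140 on the array labelled double null and 20.5 on the wild-type array, both under the floor, and gives no fold. The ratio of the representative probe set was the same with each floor tried. In bulk tissue, fewer cornifying cells and less Lor RNA per cell cannot be told apart, and the same holds for every gene below.

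Lce1a1 encodes a late envelope protein that is added to the shell at the end of cornification. Its brighter probe set had 216 on the array labelled double null and 2013 on the wild-type array, which is at least 7.02-fold lower because the first value lies under the floor. The suffix of that probe set marks probes that can also bind related transcripts, and the Lce1 genes are near-identical copies, so it may read several of them. The other probe set carries no such suffix and had 236 on the array labelled double null and 573 on the wild-type array, at least 1.998-fold lower, but under the level of a measured gene. Both probe sets were readable on the wild-type array and under the floor on the array labelled double null.

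Most measured Lce1 genes were read by such shared probes. The 4 Lce1 probe sets with a suffix that were above the floor on either array had log2 ratios from -2.81 to -1.36, and all 4 were at least 2-fold lower. They include Lce1h, with 318 on the array labelled double null and 2132 on the wild-type array, and Lce1i, with 980 on the array labelled double null and 4693 on the wild-type array. Of the 6 without a suffix that were above the floor 5 were lower and 1 higher, 1 of them at least 2-fold lower. That one was Lce1a2, with 441 on the array labelled double null and 1232 on the wild-type array (2.79-fold lower). Lce3b, of another branch of the family, had a log2 ratio of -0.59. The Lce1 ratios were thus larger in probe sets with a suffix, but those without were mostly dimmer, and the floor shortened some of their ratios. Without a floor Lce1a1 had -1.28 and Lce1c -1.63 in probe sets without a suffix, and the higher one, of Lce1f, had 1.13. Probe sharing apart from signal level was not tested. The number of separate genes behind the Lce1 result cannot be read from these arrays.

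The small proline-rich proteins act as cross-bridges that set how rigid the envelope is, and Sprr3 is known mainly from oral and oesophageal mucosa. Sprr3 had a signal of 363 on the array labelled double null and 1005 on the wild-type array, 2.76-fold lower (log2 ratio -1.47). With the floor at the 60th percentile its log2 ratio was -0.61, which ended the call. Sprr1a had 725 on the array labelled double null and 1427 on the wild-type array, 1.97-fold lower (log2 ratio -0.98), just short of the 2-fold rule. Sprr1b had 17.0 on the array labelled double null and 109 on the wild-type array, both under the floor, so no fold is given. Each of these genes had 1 probe set, and none carried a suffix. Among the Sprr2 genes none was measured, and 5 of 9 Sprr genes with a probe set were under the floor on both arrays. Sprr2k, which was not, had 499 on the array labelled double null and 515 on the wild-type array, and Sprr2d had 313 on the array labelled double null with a wild-type signal under the floor.

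Filaggrin and repetin belong to the S100-fused proteins, whose long repeat region follows a calcium-binding head. Profilaggrin, the product of Flg, is stored in keratohyalin granules and then cut to filaggrin, which bundles keratin filaments. Its probe set had 263 on the array labelled double null and 383 on the wild-type array, at least 1.34-fold lower and under the level of a measured gene. Rptn, repetin, had 707 on the array labelled double null and 942 on the wild-type array by its brightest probe set, 1.33-fold lower (log2 ratio -0.42). That difference lies within the SD of 0.51 given above. Another probe set of Rptn had a log2 ratio of -0.18, and the remaining one was under the floor on both arrays. Relatives of these genes, Hrnr, Tchh and Tchhl1, were under the floor on both arrays.

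Involucrin, the early scaffold of the envelope, was not readable. Its probe sets had 191 on the array labelled double null and 201 on the wild-type array in the brighter one, and 32.0 on the array labelled double null and 19.2 on the wild-type array in the dimmer one. Both lay under the floor on both arrays, so neither presence nor change of Ivl can be stated.

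Of the transglutaminases that make the cross-links, neither reached the level of a measured gene. Tgm1, the membrane-bound enzyme that builds the scaffold, had 529 on the array labelled double null and 651 on the wild-type array, 1.23-fold lower (log2 ratio -0.30), just under the level of a measured gene. Scaling on the median signal of widely expressed reference genes gave Tgm1 a log2 ratio of 0.02, so its direction depended on the scaling. Tgm3, the soluble enzyme that acts on loricrin and the small proline-rich proteins, had 278 on the array labelled double null and 480 on the wild-type array, at least 1.67-fold lower. Its second probe set had 222 on the array labelled double null and 342 on the wild-type array, at least 1.19-fold lower. Tgm2, the widely expressed transglutaminase, had a log2 ratio of -0.22, and Tgm5, another enzyme of keratinocytes, had 633 on the array labelled double null and 522 on the wild-type array, under the level of a measured gene.

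**Figure D2:**
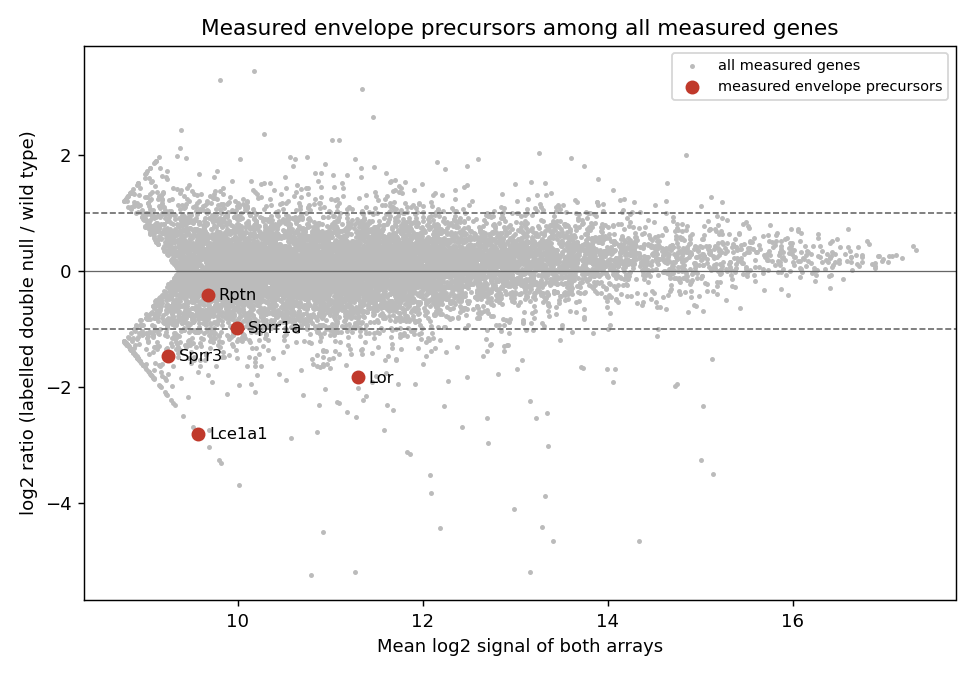
Log2 ratio (labelled double null / wild type) against the mean log2 signal of both arrays for all 11239 measured genes (grey) and the 5 measured precursors (red), with dashed lines at 2-fold. Lor, Lce1a1 and Sprr3 lie below the lower line, Sprr1a just short of it at -0.98, and Rptn at -0.42.

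Ratios spread more where signals were low, and most precursors were dim. Among all measured genes with a mean signal from the 75th percentile (1479) up, 2.43% were at least 2-fold lower. Between the 60th and 75th percentiles 4.19% were, and 24.4% were where the mean lay under the 60th percentile while the brighter array was above it. Lor had a mean log2 signal in the highest of these ranges, Lce1a1, Sprr1a and Rptn in the middle one, and Sprr3 in the lowest.

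Neighbours of the precursor genes mostly had log2 ratios below 0 as well, but most of those past 2-fold reached the measured level on the wild-type array only. The epidermal differentiation complex was taken as all genes between S100a1 and S100a10 on chromosome 3 in the RefSeq table (GRCm38.p6), 101 genes of which 70 code for protein. It holds 8 of the 10 genes described here, all but Tgm1 and Tgm3. Of the 49 with a probe set 21 were measured, 10 of these (47.6%) passed 2-fold downward and 0 upward, and 19 lay below 0. On the rest of chromosome 3, 20 of 577 measured genes (3.47%) passed 2-fold downward and the median log2 ratio was 0.14, beside -0.98 in the complex. Without the precursors themselves, 7 of 16 genes of the complex were at least 2-fold lower, with a median of -0.79. Of these 7, 6 were measured through the wild-type array only, and of the 10 genes measured on both arrays 1 was lower by that much.

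Within the complex, genes of the precursor stretch and the S100 genes at its ends are given separately, and the difference between them was not tested. Of the 12 measured genes that are not S100 genes, 9 were at least 2-fold lower and all 12 were below 0, with a median of -1.41. Of the 9 measured S100 genes 1 was at least 2-fold lower, 7 were below 0, and the median was -0.34. Among genes measured on both arrays 2 of 5 genes that are not S100 genes and 0 of 8 S100 genes were at least 2-fold lower, so the filter sets much of this contrast. The 10 lower genes were Lor, Sprr3, Lce1a1, Lce1a2, Lce1d, Lce1h, Lce1i, Kprp, Crct1 and S100a9. Kprp, a keratinocyte proline-rich protein, had 339 on the array labelled double null and 731 on the wild-type array (2.15-fold lower). Crct1, a small cysteine-rich protein gene next to the Lce genes, had 382 on the array labelled double null and 784 on the wild-type array (2.05-fold lower). S100a9, which neutrophils also express strongly, had a signal under the floor on the array labelled double null and 806 on the wild-type array (at least 2.81-fold lower), and S100a8, its partner, had a log2 ratio of -0.45. S100a10 and S100a6, which many tissues express, had log2 ratios of 0.63 and 0.56. Of the 10 lower genes 8 were measured through the wild-type array only, so that they had to differ to be counted. Of the 13 genes measured on both arrays 2 were at least 2-fold lower, against 215 of 9973 over all genes. With the filter set on the mean of both arrays instead, 6 of 17 genes of the complex were at least 2-fold lower, against 2.94% of all genes, and with probe sets without a suffix 6 of 12.

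**Figure D3:**
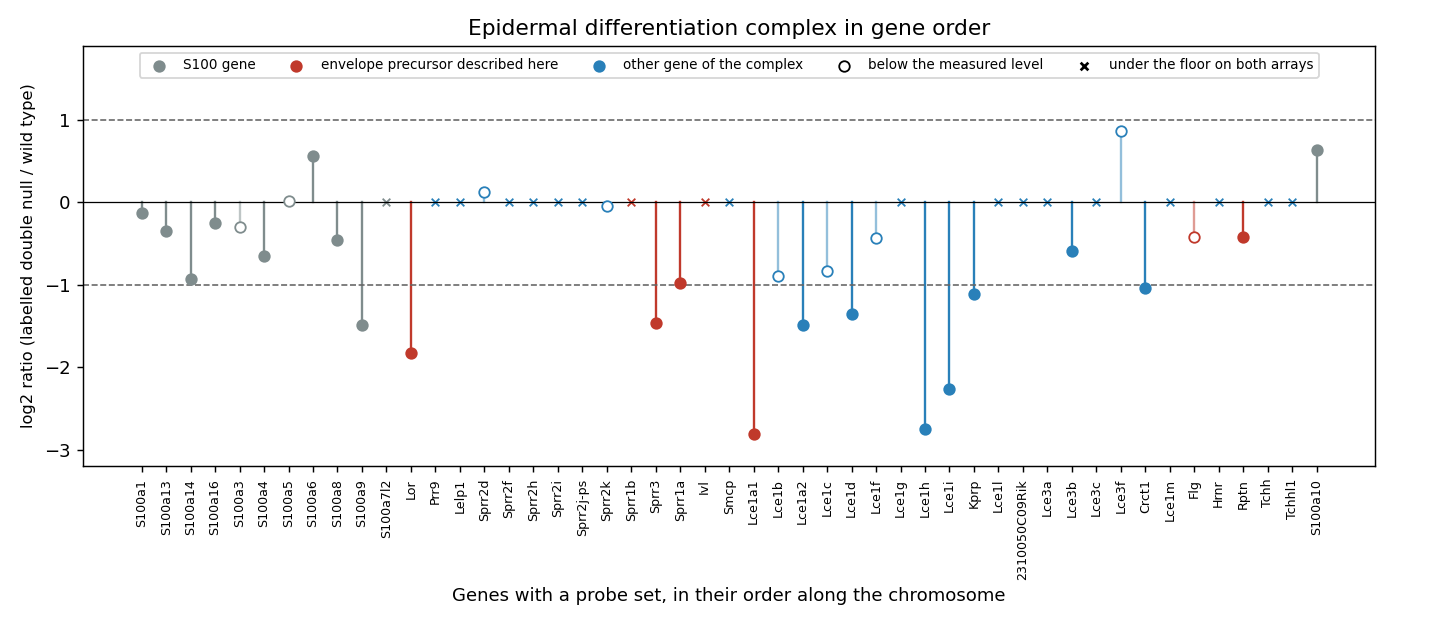
Log2 ratio (labelled double null / wild type) of the 49 genes of the epidermal differentiation complex with a probe set, in their order along chromosome 3. Filled points are the 21 measured genes, open points lie below the measured level, crosses were under the floor on both arrays, and dashed lines mark 2-fold. The deepest points are those of Lce1a1, Lce1h, Lce1i and Lor, in the stretch between the S100 genes.

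Other genes of the envelope and the skin barrier had medians closer to 0 than the precursors, outside the Lce and Sprr families. Of 68 such genes with a probe set 31 were measured, of which 7 passed 2-fold downward, 1 upward and 23 neither, with a median log2 ratio of -0.40, beside 4.22% downward among all measured genes. Of the 7, 5 were measured through the wild-type array only, and of the 24 genes measured on both arrays 2 passed downward. The Lce and Sprr genes outside the 10 gave 4 of the 7, with 5 of 20 measured. Their median log2 ratio of -1.48 rests on that filter. It was 0 with no filter, where 9 of the 20 were under the floor on both arrays, and -0.86 with the filter at the 50th percentile. Shared probes limit it too: Lce1d, Lce1h, Lce1i and Lce3b were read by probe sets with a suffix. Without such probe sets 1 gene of this list was measured, so these genes may not be separate results. In the list of other envelope proteins 1 of 13 measured genes was at least 2-fold lower, Kprp, and the median was -0.41. S100a14 had a log2 ratio of -0.93 and Calml3, a calmodulin-like protein of epithelium, -0.78. Evpl, envoplakin, which anchors the scaffold to desmosomes, had -0.73, whereas its partner Ppl, periplakin, had 0.60. Cdsn, corneodesmosin, which holds cornified cells together, had -0.73, with 486 on the array labelled double null and 805 on the wild-type array.

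Enzymes that assemble, process and lipid-coat the envelope lay on both sides of 0. The list had a median log2 ratio of -0.02 over 13 measured genes, which turned to 0.31 when scaled on the reference genes' median signal, with 2 past 2-fold downward and 1 upward. Aloxe3, a lipoxygenase needed to attach lipids to the envelope, had 492 on the array labelled double null and 1535 on the wild-type array (3.12-fold lower). Casp14, a caspase that helps to break down filaggrin, had 1507 on the array labelled double null and 3637 on the wild-type array (2.41-fold lower). Asprv1, a protease that cuts profilaggrin, was 1.98-fold lower, with 589 on the array labelled double null and 1164 on the wild-type array. Elovl4, which makes very long fatty acids for skin lipids and is also expressed in brain, was 2.25-fold higher. It had 4793 on the array labelled double null and 2134 on the wild-type array. Abhd5, a lipase cofactor, had 0.78, with 0.23 in its other measured probe set.

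Regulators of keratinocyte differentiation had a smaller median ratio than the precursors, but this did not hold gene by gene. Those with the largest differences, given below, exceeded Rptn (-0.42) in size. The regulators were also brighter, where ratios spread less: with the filter at the 75th percentile 16 regulators and 2 precursors stayed measured. None of 21 measured regulators passed 2-fold in either direction, and the median log2 ratio was 0.09. When scaled on the reference genes' median signal, which shifted all genes upward, 4 of 22 were at least 2-fold higher and the median was 0.41. The median turned to -0.01 with quantile normalization and to -0.05 when scaled on the reference genes' median ratio. The largest differences were those of Dlx3 at 0.96, Klf5 at 0.86, Tfap2c at 0.83, Grhl1 at 0.73 and Sp6 at -0.72. Second probe sets of Klf5 and Tfap2c gave 0.54 and 0.10. Klf4, a Krüppel-like factor required for the skin barrier, had -0.04, and Trp63, the p63 factor of stratified epithelium, had 0.09, both named after their values were seen.

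Markers of the epithelial layers were mostly lower as well, to different degrees. Keratins of differentiating layers had a median log2 ratio of -0.67, with 2 of 9 measured genes past 2-fold downward and 7 below 0. Krt4 and Krt13, a keratin pair of oral mucosa, were 4.75-fold and 3.03-fold lower. Krt10 and Krt1, the pair of cornifying epithelium, had log2 ratios of -0.88 and -0.68, Krt10 with 6374 on the array labelled double null and 11750 on the wild-type array. Krt17 had -0.67 and Krt80 had 0.38. Krt2, Krt76 and Krt77 were under the floor on both arrays. The sum of signals over the 14 keratins was 27114 on the array labelled double null and 57969 on the wild-type array.

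The list of basal layer genes had a median log2 ratio of -0.29, and Sfn and Lamb3, 2 of 11 measured, were at least 2.43-fold and 2.06-fold lower. Sfn is not particular to that layer. It had 240 on the array labelled double null, under the floor, and 696 on the wild-type array, so it was measured through the wild-type array only. The median turned to 0.06 when scaled on the reference genes' median signal. Krt15, Krt14 and Krt5, keratins of the basal layer, had -0.95, -0.70 and -0.59. Dst had 0.29, but its 2 other measured probe sets had a median of -0.28. Summed signals of the 13 basal genes were 70416 on the array labelled double null and 97831 on the wild-type array. Genes of epithelium in general had a median of -0.07, which turned to 0.25 by that scaling, and none of 16 passed 2-fold. Their sums were 113695 on the array labelled double null and 98579 on the wild-type array, although 10 of the 16 were below 0. These sums follow the brightest genes, such as Epcam, with 31030 on the array labelled double null and 17222 on the wild-type array. Epcam had a log2 ratio of 0.85, with -1.42 in its other measured probe set. Spint2 had 0.64, with 0.03 in its other measured probe set, and Krt7, Cldn4 and Krt19 had -0.70, -0.64 and -0.51.

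Other tissues in the dissection also differed between the samples. Skeletal muscle genes had a median log2 ratio of -0.95, with 8 of 20 at least 2-fold lower. Their summed signals were 153169 on the array labelled double null and 273605 on the wild-type array. All 20 were above the floor on both arrays. Muscle gene signal was thus lower but still read on the array labelled double null, as was Myod1 signal. The genotype behind that label was not tested. Tnnc2, Des, Tnni1, Ckm and Tnnt3 had -1.69, -1.53, -1.44, -1.39 and -1.30, and Neb had -0.29. Neuronal genes had a median of 0.81, with 6 of 15 at least 2-fold higher and sums of 149516 on the array labelled double null and 72583 on the wild-type array. Elavl4, Snap25, Nefl, Rbfox3 and Stmn2 had 1.75, 1.56, 1.51, 1.39 and 1.19, and Gap43 had 0.22. Other measured probe sets gave 0.72 for Elavl4 (median of 2), 1.54 for Snap25, 0.88 for Nefl and 0.82 for Stmn2. Salivary and mucous gland genes had a median of -0.16, with 2 of 9 past 2-fold downward and 2 upward. The lower ones were Smgc, at least 9.56-fold, and Bpifa2, at least 4.66-fold. The higher ones were Car6, 2.23-fold, and Dcpp1, 2.09-fold, and Bhlha15 had -0.89. Summed gland signals were 20345 on the array labelled double null and 15296 on the wild-type array. Car6 alone gave 14715 and 6596 of these and sets the direction of the sums. The part of tissue makeup in the precursor result was not tested.

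**Figure D4:**
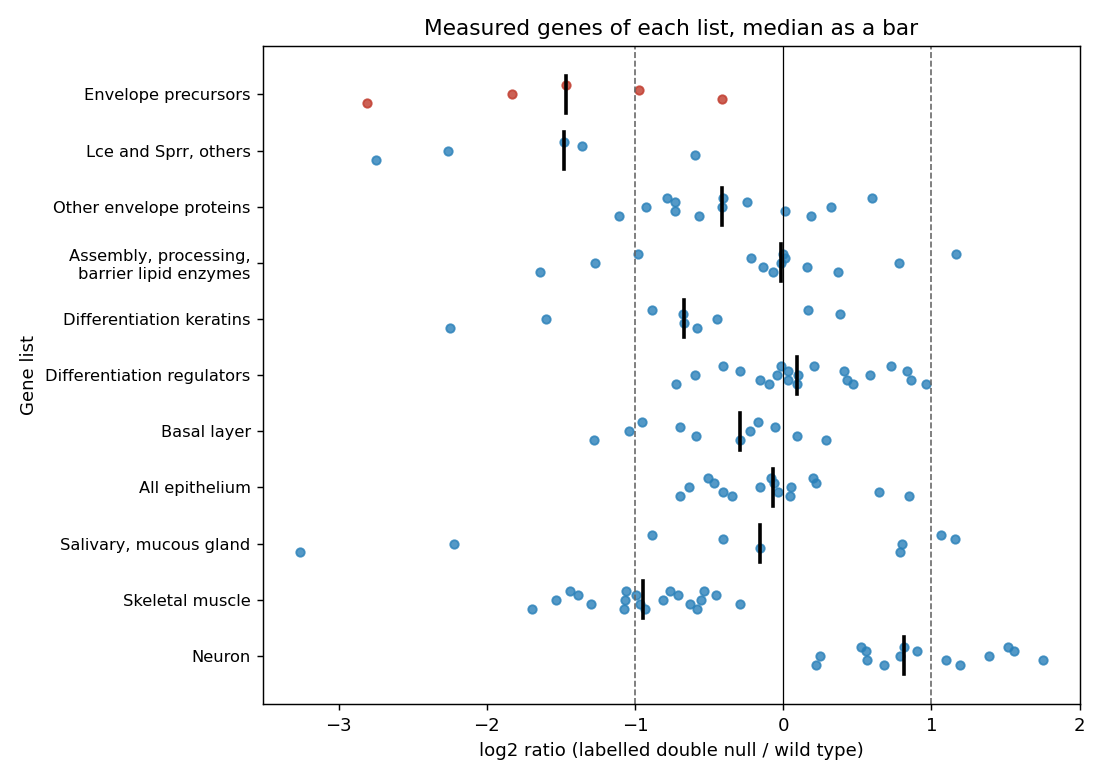
Log2 ratio (labelled double null / wild type) of the measured genes of each list, 1 point per gene, with the list's median as a bar and dashed lines at 2-fold. The precursors and the other Lce and Sprr genes have medians of -1.47 and -1.48 over 5 measured genes each. Both rest on the filter, and with none they were -0.58 and 0. Of those other Lce and Sprr genes 1 stays measured without shared-suffix probe sets. The differentiation keratins have a median of -0.67, the basal layer -0.29 and the differentiation regulators 0.09.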

How the data were processed

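The authors deposited 1 linear signal intensity per probe set and array, computed with MAS5, per the submitters' processing notes; version and genome build are not given in the sources used here. Total RNA was labelled as biotinylated cRNA, per the labels' protocols. Trimmed means of the arrays were 1500.01 on both. Detection calls were not used.

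The platform annotation gave gene names: 1 gene for 34945 probe sets, several for 932, and no listed gene for 9160, beside 64 controls. Scaling used each array's median over the probe sets that reached the 50th percentile on both (factors 1.03 for the array labelled double null and 0.974 for wild type). Signals under the 40th percentile were raised to it before taking log2. Each gene was represented by its brightest probe set on average. A fold with 1 array below the floor is a bound and is given as at least that size. The number of arrays limits the precision, and no test was possible. The SD of 0.51 comes from 10187 measured probe sets of 4029 genes and covers probe effects, not animals.

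Members and gene lists were chosen with earlier results of these data known. Named genes were all members, for each list up to 5 measured genes with the largest ratios in either direction plus the one furthest the other way, and genes of the complex past 2-fold (up to 12). Genes outside this rule were chosen after their values were seen: relatives of members, promoter windows' families, S100 genes and unreadable keratins. The 12 reference genes used in alternative scalings, all measured, had a median log2 ratio of 0.15, Eef2 at -1.52 and Ywhaz at 0.57. The steps were tested on simulated data. Differences were planted there only in genes far brighter than the measured level, so dim genes near the floor were not covered. Python 3.11.15, numpy 2.4.6, pandas 2.3.3 and matplotlib 3.10.9 were used.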

Additional observations from a re-analysis of the deposited data

How the results depend on the processing

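The count of precursors at least 2-fold lower stayed between 2 and 4 in 13 alternatives, among 2 to 10 genes that passed the filter, and it was 4 by a 1.5-fold rule and 2 by a 3-fold rule. Their median log2 ratio was -2.32 with the filter at the 75th percentile, which left 2 genes, and -0.58 with no filter, and lay within 0.51 of the reported value in the other alternatives. Lor ranged from -2.72 to -1.52 and Lce1a1 from -3.22 to -0.999, and -0.999 is its probe set without a suffix. Sprr3 was -0.61 with the floor at the 60th percentile, which ended its call. Sprr1a ranged from -1.12 to -0.66 and passed 2-fold with the deposited scaling and when scaled on the reference genes' median ratio. The count of other envelope and barrier genes at least 2-fold lower was 4 with the floor at the 60th percentile, 4 with the filter at the 75th percentile, 3 without shared-suffix probe sets, 13 by a 1.5-fold rule and 3 by a 3-fold rule, against 7. For the epidermal differentiation complex, whose alternatives were chosen after seeing the data, the count was 4 with the floor at the 60th percentile, 4 with the filter at the 75th percentile, 6 without shared-suffix probe sets, 6 with the filter on the mean of both arrays and 4 by a 3-fold rule, against 10. These alternatives leave fewer genes, shrink ratios of dim genes or ask for another fold by construction. Using the reference genes' median signal to scale shifted the median of all genes by 0.33 and using their median ratio shifted it by -0.15. Relative to the median of all genes, the precursors' median was -1.54 as reported, -1.55 and -1.28. The genes at least 2-fold lower made up 54.3% of all past 2-fold, against 16.7% and 74.5% with these scalings and 65.0% with the deposited one. The median of the gland list, -0.16 as reported, was 0.63 with the reference genes' median signal, 0.78 with the filter on the mean of both arrays and -1.05 with the filter at the 75th percentile. That of the other Lce and Sprr genes was 0 with no filter, -0.86 with the filter at the 50th percentile, -0.90 with the floor at the 60th and -2.26 with the filter at the 75th, against -1.48. No paired analysis was possible because each genotype has 1 array, and for the same reason no array could be left out.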
